A study of Homo sapiens with 15 samples.

Results

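KO-2 and KO-3 are clones of HCT116, a human colon cancer line, and both are labelled bktRNA1-/-. They were set directly against each other here, 3 libraries against 3, without the wild-type line. The series holds 15 libraries of polyadenylated RNA, from the wild-type line and from the clones KO-1 to KO-4, with 3 libraries per group from independent experiments. All groups share the HCT116 background and growth in DMEM with serum. Each clone is 1 isolate, so a difference between KO-2 and KO-3 is one between 2 isolates that carry the same label, and the p-values measure the spread between libraries of a clone. What bktRNA1 is the labels leave unsaid, and its own level was not analysed. The introns compared were those listed for both clones at the same position and strand whose retained reads and spliced reads each averaged 10 or more over the 6 libraries. There were 23015 such introns in 6724 genes, of 92296 introns listed for both clones and 111143 listed for any clone. Every difference is given as KO-2 minus KO-3.

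An intron is removed from a transcript by the spliceosome, a machine of small nuclear RNAs and proteins. Most introns are removed by the major, U2-type spliceosome, and a small class by the minor, U12-type spliceosome, which reads a longer and stricter sequence at the 5′ end of the intron and at its branch site. An intron that stays in a polyadenylated transcript is called retained. Such transcripts are often held in the nucleus or degraded, and retention is a common layer of control in genes for splicing factors. A read over an exon-intron boundary was counted as retained and a read that joins the flanking exons as spliced. The retention level is the share of retained reads after each count is divided by the number of positions that can yield it. Boundary reads do not tell a wholly retained intron from another exon end or start inside it.

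The 6 libraries held between 27697728 and 36151970 junction reads, of which 13.09% to 13.89% were retained. The median retention level of the 23015 introns was 8.91%, 8.39% and 7.72% in the KO-2 libraries and 8.47%, 7.94% and 7.44% in those of KO-3. The clones overlapped, and at each place in the list of libraries the KO-2 level lay above that of KO-3. Library pairs of a clone differed beyond counting error, with chi-square per degree of freedom between 3.93 and 15.89, so none was a copy of another. The highest ratios were those of pairs with the first KO-3 library, which stood apart for genes of amino acid supply as given below. Of 13 markers of colon epithelium, 9 were listed and testable, whereas none of 9 blood markers and none of 5 endothelial markers was. Of 9 fibroblast markers only COL1A1 was, at 535 to 644 scaled reads in KO-2 and 421 to 478 in KO-3.

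The ends of 5 introns show the sequences that the classes rest on. Both ends could be read for some introns only, from annotated transcripts in which they are exonic. In the U12-type introns of TMEM258, a subunit of the oligosaccharyltransferase, and EDC4, a scaffold of mRNA decapping, capitals mark the first 8 bases and the branch site. In the U2-type introns of SENP3, DBP and SEC31A, capitals mark the GT and AG ends.
TMEM258 (chr11:61789922-61790492, minus strand), 5′ end: GTATCCTTtc
TMEM258, 3′ end: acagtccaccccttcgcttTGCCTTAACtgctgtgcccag
EDC4 (chr16:67881846-67881953, plus strand), 5′ end: GTATCCTTga
EDC4, 3′ end: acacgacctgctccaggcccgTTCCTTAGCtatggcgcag
SENP3 (chr17:7571480-7571711, plus strand), 5′ end: GTgagcctcg
SENP3, 3′ end: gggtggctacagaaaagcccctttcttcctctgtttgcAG
DBP (chr19:48633656-48634348, minus strand), 5′ end: GTaagtagga
DBP, 3′ end: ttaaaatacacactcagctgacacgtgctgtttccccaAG
SEC31A (chr4:82842482-82844385, minus strand), 5′ end: GTaagtagtg
SEC31A, 3′ end: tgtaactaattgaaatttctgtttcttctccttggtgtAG
The U12-type introns share the first 8 bases. The U2-type introns share the GT and AG ends, and the starts of DBP and SEC31A are alike beyond them.

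Retention differed between the clones at 541 of 23015 introns, or 2.35%, in 401 genes. It was higher in KO-2 at 360 introns (1.56%) and lower at 181 (0.786%), by a quasi-binomial test adjusted over all introns by Benjamini-Hochberg with a threshold of 0.05. The odds of retention differed at least 2-fold at 180 of the higher and 100 of the lower introns. The libraries of the clones overlapped at 16 of the higher and 8 of the lower introns. The median intron had log2 odds 0.07 higher in KO-2. With each library centred on the median log odds of its introns, that median was 0.016 and the split was 301 higher and 268 lower. Counts also depended on single libraries. The higher count was 198 without the first KO-2 library, 208 without the second, 506 without the third and 175 without the third KO-3 library. The lower count was 113 without the second KO-2 and 115 without the second KO-3 library. Of the 1411 introns just inside the minimum, with a mean of 10 to 11 retained reads, 11 were called and the median level was 3.47%, against 3.28% for the 1658 introns just outside it. Among the 360 higher introns the scaled retained reads moved more than the spliced reads at 229, with a median log2 change of 0.61 for retained and -0.30 for spliced reads. Among the 181 lower introns they moved more at 83, with medians of -0.37 and 0.60.

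The largest rises in KO-2 lay in introns of TRIM62, ANO1, TMEM63A, SENP3 and AP1M2, among others. TRIM62 encodes a RING-type ubiquitin ligase. Its last intron (intron 4 of 4, coding, chr1:33147728-33158252) was retained at 45.9%, 40.5% and 28.9% in KO-2 and at 0%, 3.57% and 1.82% in KO-3. No libraries of the clones overlapped, and the log2 odds were 4.93 higher (SE 1.14, adjusted p = 5.7e-07). Spliced reads of this intron were alike in the clones (log2 -0.04), so the difference lay in the 39, 34 and 26 retained reads of KO-2 against 0, 2 and 1. TMEM63A, a mechanically gated ion channel, had intron 19 of 24 retained at 16.1%, 12.9% and 16.4% against 2.27%, 0% and 1.45% (log2 odds 3.67, adjusted p = 7.2e-04). Its KO-2 libraries all lay above those of KO-3. In ATP8B1, a phospholipid flippase, intron 19 of 28 reached 59%, 44.8% and 51.4% against 8.51%, 12.7% and 17.1% (log2 odds 2.93, adjusted p = 4.4e-05). Here the spliced reads fell by 2.52 on the log2 scale while the retained reads changed by 0.33, and an annotated exon overlaps the intron.

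SENP3, a SUMO protease of the nucleolus, differed through a rare splice. Its intron 5 of 5 was almost wholly unspliced in both clones, at 99.4%, 99.1% and 98.9% in KO-2 and 91.3%, 88.8% and 89.1% in KO-3. The splice itself had 2, 3 and 4 reads in KO-2 against 27, 36 and 28 (log2 odds 3.67, SE 0.70, adjusted p = 5.7e-08). DBP is a transcription factor of the circadian output, and its first intron lies in the 5′UTR. That intron was retained at 48.9%, 47.7% and 58% against 10%, 13.7% and 16.3%, with no overlap (log2 odds 2.82, adjusted p = 3.1e-04). AP1M2, the epithelial subunit of a clathrin adaptor, had intron 8 of 11 at 9.09%, 5.08% and 3.23% against 0.762%, 0.521% and 0.0867% (log2 odds 3.61, adjusted p = 1.3e-08). All introns of AP1M2 had fewer spliced reads in KO-2, as described below for the gene. The other named rises were smaller in level or rested on few reads. They lay in the polarity scaffold MPP7, calcineurin subunit PPP3CA, laminin LAMA2, the lipase ABHD12, the chloride channel ANO1 and an intron listed under the names AC009133.6, PAGR1 and AC120114.4, with log2 odds between 2.85 and 3.80. ANO1 lost its call without the second KO-3 library (adjusted p = 0.067), and ABHD12 without the first KO-3 library (adjusted p = 0.066).

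The largest falls in KO-2 lay in introns of SESTD1, PHIP and ZNF384, among others. SESTD1 encodes a phospholipid-binding protein with spectrin repeats. Its intron 4 of 5 (chr2:179172234-179176447) was retained at 0%, 0.84% and 0% in KO-2 and at 38.6%, 39.4% and 62.5% in KO-3, from 0, 1 and 0 against 39, 39 and 50 retained reads. The log2 odds were 8.37 lower, written -8.37 (SE 1.93, adjusted p = 2.8e-17), and the clones lay far apart. PHIP, a substrate receptor of a cullin ubiquitin ligase that reads histones, had the intron numbered 9 of 16 in a noncoding transcript (chr6:78958601-78961689) at 5.13%, 7.32% and 13.3% against 69%, 56.2% and 70.6%. Its log2 odds changed by -4.14 (SE 0.51, adjusted p = 9.1e-13), again without overlap. ZNF384, a zinc finger transcription factor, had 5 of 12 tested introns lower and none higher. Its intron 8 of 10 stood at 2.2%, 3.31% and 5.53% against 22.9%, 28.8% and 33.7% (log2 odds -3.32, adjusted p = 2.4e-10), and spliced reads there differed by 0.19.

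ACSL5 joins fatty acids to coenzyme A, and reads over its first intron tell apart 3 listed first exons. Spliced reads that joined the most upstream first exon to exon 2 averaged 51.9 ± 12.4 (SD, n = 3) in KO-2 and 170 ± 28 in KO-3. Those from the middle one averaged 30.4 ± 6.77 and 46.2 ± 11, and those from the most downstream one 306 ± 42.5 and 158 ± 15.1. The most downstream start thus had the most reads in KO-2, whereas in KO-3 it and the most upstream one lay within their spread. These averages carry no test. The level over the downstream intron was 2.19%, 1.53% and 1.78% against 16.3%, 13.2% and 12.9% (log2 odds -3.17, SE 0.37, adjusted p = 4.4e-14). The introns of the other starts end at the same acceptor. Further falls lay in the prolyl hydroxylase gene P3H3, the chromatin remodeller HELLS, the endosomal genes RABEP2 and ENTR1, the receptor phosphatase PTPRH and the apical transport gene MAL2, with log2 odds between -2.17 and -2.86. Clones overlapped for HELLS, at 4.26%, 0.503% and 0.441% against 13%, 9.09% and 3.03%, and its call was lost without the second KO-2 or the first KO-3 library. PTPRH lost its call without the first KO-2 library (adjusted p = 0.089) and ENTR1 without the second KO-3 library (adjusted p = 0.094).

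**Figure D1:**
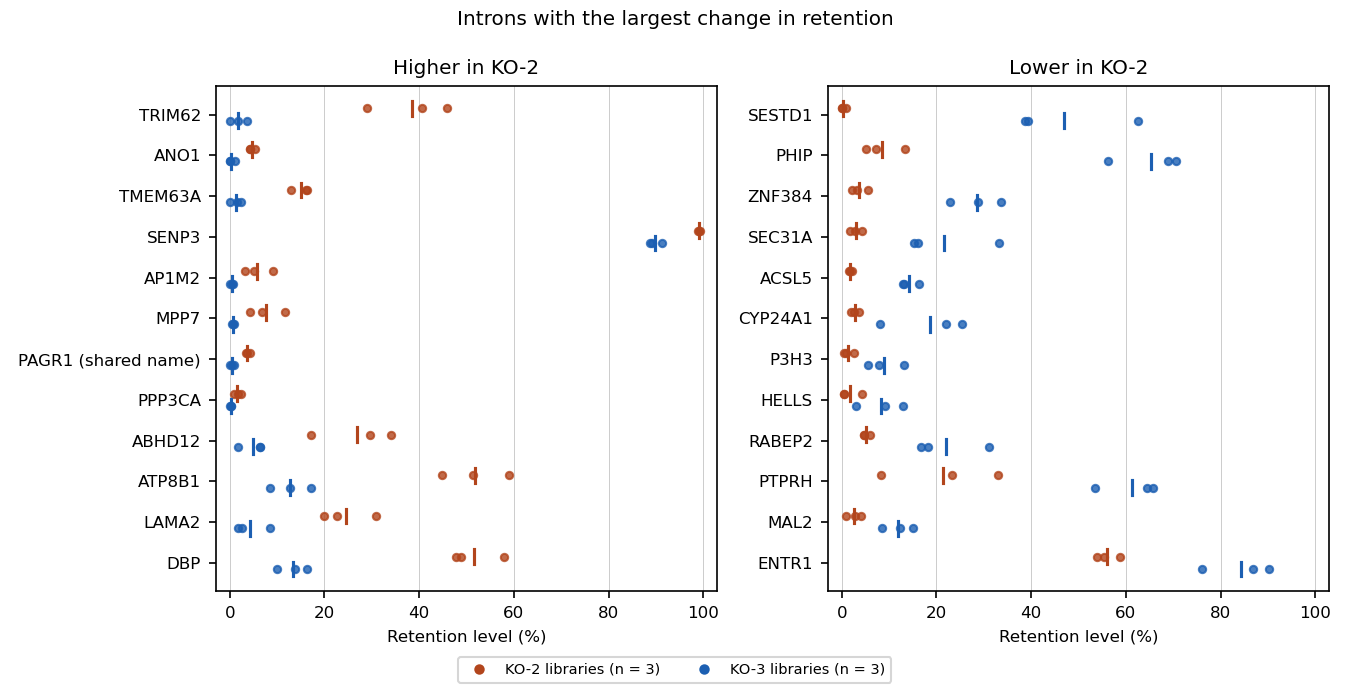
Retention level in percent (x axis) of the 24 named introns, 1 row per gene, with each library as a point and the mean of 3 libraries as a bar, KO-2 in orange and KO-3 in blue. Points of the clones are apart for 23 introns and overlap for HELLS, and the widest gap is at PHIP, at 8.59% against 65.3%.

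Reads at the neighbouring introns show what else moved in these genes. In PHIP the introns listed before intron 9 had fewer spliced reads in KO-2, with log2 differences from -1.38 to -1.71, whereas the 6 listed after it differed by -0.51 to 0.18. Intron 8 averaged 44.8 ± 6.45 scaled spliced reads in KO-2 and 129 ± 7.18 in KO-3, and intron 11 averaged 40.6 ± 4.13 and 38.9 ± 7.32. KO-3 thus had more spliced PHIP reads before intron 9 and a like number beyond it, in values without a test. At intron 9 itself the spliced reads were higher in KO-2 by 1.03 on the log2 scale. SESTD1 had the reverse order. Its intron 3 was alike at 50.9 ± 2.27 and 57.1 ± 9.24 spliced reads, and the 9 introns listed after intron 4 were lower in KO-2 by 0.86 to 1.48 on the log2 scale, each a value without a test. Retained reads at SESTD1 intron 4 averaged 0.32 in KO-2 and 45.2 in KO-3, whereas its spliced reads were higher in KO-2 by 1.26 on the log2 scale. The reads in excess in KO-3 were thus the retained reads of intron 4 and the spliced reads after it.

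SERBP1 binds mRNA and ribosomes, and its 3 called introns of 5 tested were those numbered 3 and 4. Intron 3 (chr1:67424978-67425082) was retained at 0.176%, 0.166% and 0.311% against 4.58%, 3.52% and 2.96% (log2 odds -4.09, adjusted p = 5.4e-17). Intron 4 is listed with a pair of acceptors, and retention fell at both, by 2.63 and 0.98 on the log2 scale of the odds. Spliced reads of introns 3 and 4 were higher in KO-2 by 0.65 to 0.90, and those of the flanking introns were lower by 0.26 to 0.37. Reads that join the exon between introns 3 and 4 were thus higher in KO-2 while those of the outer introns were lower. Summed over the 5 introns tested, SERBP1 had 0.35 more in log2 spliced reads, but over every listed intron the value was -0.01.

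TPM2, a tropomyosin, differed at a choice of exons. The introns around an internal exon (chr9:35684808-35685268 and chr9:35684551-35684731) were retained at 20.2% to 23.1% in KO-2 and 8.77% to 12.6% in KO-3, with log2 odds 1.25 and 1.28 higher (adjusted p = 1.3e-08 for both). Their spliced reads were lower by 0.88 and 0.76, while the introns of the alternative exon differed by 0.10 and 0.11 and TPM2 as a whole by -0.06 (adjusted p = 0.45). One intron of the alternative exon (chr9:35684551-35685063) was also called, at 0.42 (adjusted p = 0.041), but not when any 1 of the 6 libraries was left out. BAX, a pore-forming protein of apoptosis, had 4 of 7 tested introns higher and none lower. Its intron 2 of 6 stood at 30.3%, 29.9% and 29.8% against 13.4%, 10% and 10.9% (log2 odds 1.74, adjusted p = 3.3e-11). Spliced reads of BAX introns 1 and 2 were lower by 1.73 and 1.64, and those of the later introns 3, 4 and 6 by 0.82 to 1.00. The call at the BAX intron from 48956334 to 48960809 was lost without the second KO-2 (adjusted p = 0.23) or the third KO-3 library (0.064).

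**Figure D2:**
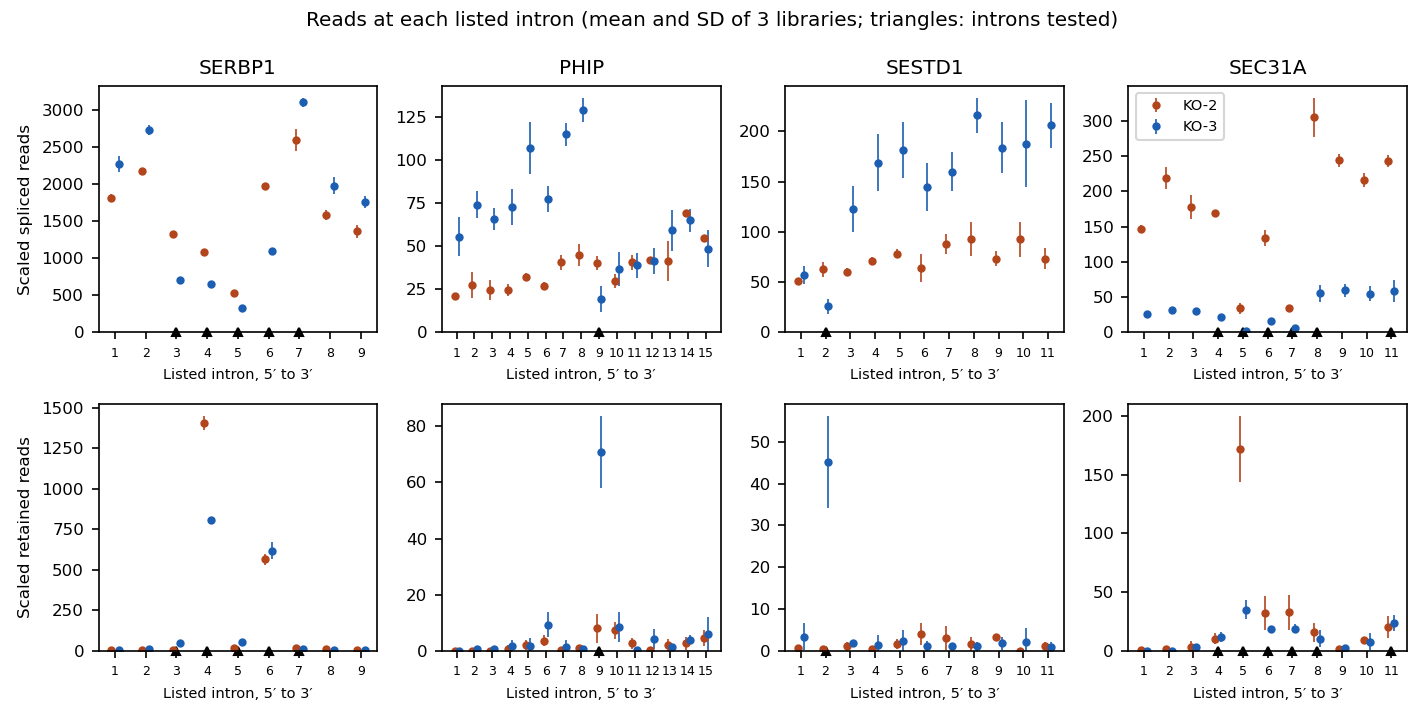
Scaled spliced reads (upper row) and scaled retained reads (lower row) at each intron listed for both clones in SERBP1, PHIP, SESTD1 and SEC31A, in 5′ to 3′ order, as mean and SD of 3 libraries, with triangles at introns that were tested. PHIP falls from a KO-3 excess to like values after its tested intron, SESTD1 gains a KO-3 excess after it, and SEC31A is higher in KO-2 throughout.

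Several genes held runs of called introns, and these were picked out after their values were seen. HSPH1, a cytosolic chaperone, had 6 of 12 introns higher and none lower. GANAB, the catalytic subunit of glucosidase II in the endoplasmic reticulum, had 5 of 9 higher, and PRKCSH, the other subunit of that enzyme, had 3 higher and 1 lower of 10. FANCA, of the Fanconi anaemia repair complex, had 5 of 15 higher. Its last intron (intron 42 of 42) was retained at 58.3%, 50.2% and 52.6% against 37.3%, 33.1% and 33.8% (log2 odds 1.11, adjusted p = 4.0e-07). In the snoRNA host GAS5, 4 introns were higher and 1 was lower, in NOP56 4 were higher, and in the RNA-binding protein gene YBX1 4 of 6 were higher. CD44, a hyaluronan receptor with many variable exons, had 5 of 21 higher, by 0.55 to 1.18, and each of the 5 lost its call without at least 1 library.

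Introns of the gene lists were counted next. Ribosomal protein genes had 23 of 432 introns higher and 2 lower, beside 1.56% and 0.786% of all introns. Those shares are over introns of every read depth. With a mean of at least 50 reads of each kind, 17 of 199 ribosomal introns were higher and 2 lower, beside 219 and 96 of all 3805. RPL10 intron 5 of 5 was retained at 72.9%, 76.3% and 74% against 58.3%, 57.6% and 57.4%, and RPS2 intron 1 at 56%, 49.8% and 49.2% against 32.3%, 31.7% and 24.4%, both without overlap. RPL13 intron 1, in the 5′UTR, differed little in level, at 3.42%, 3.24% and 3.49% against 1.99%, 2.36% and 2.47%, and passed with adjusted p = 4.4e-14, a call lost with limma on log2 odds (0.24). The ribosomal count was 9 higher without the first KO-2 library, 11 without the second, 10 without the first KO-3 library and 13 without the third, and 13 after centring. Host genes of snoRNAs had 13 of 126 introns higher and 2 lower, among them SNHG1 intron 3 of 8 at 81.6%, 72.8% and 80.1% against 58.2%, 60.1% and 52.3%. The 2 lower calls were lost without the second KO-2, the second KO-3 or the third KO-3 library. At the minimum mean of 50 reads, 13 of 72 snoRNA host introns were higher and 1 lower.

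Genes for hnRNPs, the nuclear proteins that coat transcripts, had 7 of 178 introns higher and none lower, beside 1.56% and 0.786% of all introns. At the minimum mean of 50 reads, 6 of 83 were higher and none lower, beside 219 and 96 of all 3805. PCBP2 intron 10 of 12 stood at 21.8%, 23.3% and 16.2% against 13.9%, 11.5% and 11.1%, and HNRNPDL intron 8 of 8, in the 3′UTR, at 38.8%, 41.6% and 40.1% against 34.2%, 29.4% and 31.3%. The hnRNP count rose to 19 without the third KO-2 library and to 11 without the first KO-3 library, and 1 intron was lower without the third KO-2 or the third KO-3 library. Introns of SR proteins and CLK kinases were 2 higher and 2 lower of 112. For the major spliceosome 4 of 92 were higher, with intron 7 of 9 of SNRNP70, a U1 protein, at 16.6%, 17.3% and 12.3% against 10.1%, 6.46% and 7.28% (log2 odds 1.05, adjusted p = 3.6e-12). That count was 1 without the first KO-2, the first KO-3 or the third KO-3 library and 2 without the second KO-2 library. Detained-intron genes, known for introns that are spliced late, had 3 higher and 3 lower of 134. The 3 higher were 1 without the first KO-2 or the third KO-3 library and 0 without the second KO-3 library. The falls were in DDX5 and MAT2A: MAT2A intron 8 of 8 stood at 36.5%, 38.2% and 39.9% against 47.1%, 47.3% and 41.9%, with every KO-2 library below every KO-3 library. Heat shock genes had 8 of 87 higher and 1 lower, with a count of 3 to 5 higher when any library was left out, and 7 of the 124 DNA repair introns were higher (4 without the third KO-3 library). At the minimum mean of 50 reads, 1 of 20 heat shock introns was higher and 1 lower, and 7 of 29 DNA repair introns were higher. None of 52 introns of interferon response genes and none of 120 of mRNA decay genes passed, beside 2.35% of all introns. At that share few calls would fall in lists of this size. Without the second KO-3 library 1 interferon intron passed, and without the first KO-3 library 2 of mRNA decay did.

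Among the 62 introns read as U12-type, 1 was higher in KO-2 and none was lower. That intron, in TMEM258 and printed above, was retained at 13.9%, 12.5% and 11% against 6.58%, 9.97% and 10.6%. Its lowest KO-2 library lay just above its highest KO-3 library (log2 odds 0.54, SE 0.14, adjusted p = 0.015). That call was lost without the first KO-2 (adjusted p = 0.14), second KO-2 (0.074) or first KO-3 library (0.38). The EDC4 intron printed above did not pass, at 15.1%, 17.1% and 16.4% against 14.8%, 8.66% and 8.68% (adjusted p = 0.1), but passed without the first KO-3 library (0.028). Levels of U12-type introns had medians of 14.1%, 11.4% and 11% in the KO-2 libraries and 13.4%, 10.3% and 10.1% in those of KO-3. The median log2 difference between clones was -0.05 for U12-type and 0.08 for the 8054 introns read as U2-type, of which 166 were higher and 72 lower. Within each library, the U12-type median log2 odds relative to the U2-type median deviated by 0.15, -0.12 and -0.05 in KO-2 and 0.21, -0.22 and -0.17 in KO-3. The clones differed by 0.05 in this measure, with an exact two-sided permutation p of 0.7, where 20 splits allow no p below 0.1. The list for the minor spliceosome itself holds 18 gene names, among them CCDC84 and CENATAC for the same gene. Of these names 8 could be tested for spliced reads and none passed, beside 41.7% of all genes. The nearest was RNPC3 at -0.41 (adjusted p = 0.073). RNPC3 passed without the third KO-2 (0.03) or the third KO-3 library (0.04), and PPIL2 passed as higher with library totals (0.016). Over every listed intron 16 of the 18 names could be tested, and 1 was higher and 2 lower, beside 23.5% and 22.1% of all genes.

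Over all introns 1.56% were higher and 0.786% lower. By length, introns of up to 100 bases had 9 higher and 25 lower of 2001 (0.45% and 1.25%) and a median log2 odds of -0.08. Introns of 200 to 500 bases had 111 higher and 24 lower of 4781 (2.32% and 0.502%) and a median of 0.14. Those over 5000 bases had 18 and 26 of 1943 (0.926% and 1.34%). An annotated exon overlapped 12368 introns, of which 236 were higher and 133 lower (1.91% and 1.08%). Among the 10647 with none, 124 were higher and 48 lower (1.16% and 0.451%).

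Spliced reads summed per gene measure how much spliced transcript a library held. Of 5821 genes with a mean sum of at least 50, 1250 (21.5%) were higher in KO-2 and 1179 (20.3%) lower, 41.7% in all, by limma voom after scaling by the median ratio. In 40.1% of genes a call came with no overlap between the clones. At least 2-fold changes were rarer, with 111 genes higher and 27 lower (2.37%). With library totals in place of median ratios the median gene moved to 0.09 and the split to 1683 higher and 679 lower. The reads are those over the tested introns, so sums are compared between clones and not between genes, and fewer cells of a type cannot be told apart from less RNA per cell.

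CYP24A1, APOBEC3F and ZBED2 led the rises. CYP24A1, the enzyme that breaks down active vitamin D, had 3643, 3442 and 3209 scaled spliced reads in KO-2 and 489, 284 and 245 in KO-3, a 10.5-fold difference (log2 3.39, SE 0.15, adjusted p = 1.6e-10). The lowest KO-2 library was far above the highest of KO-3. The cytidine deaminases APOBEC3F and APOBEC3C, which restrict retroviruses, were 7.99-fold and 4.18-fold higher. APOBEC3F stood at 1168, 1078 and 1098 against 130, 131 and 158 reads, though reads of this family of close copies may be shared. SEC31A, an outer coat protein of COPII vesicles, stood at 983, 883 and 896 against 182, 163 and 136 (log2 2.51). Its spliced reads were higher at all 11 introns listed, by 1.96 to 3.57, and 4 of its 6 tested introns had lower retention, of which that from 82827633 to 82828999 lost its call without the second KO-2, the first KO-3 or the third KO-3 library.

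IFI6, an interferon-induced protein of mitochondria, had 2377, 2336 and 1235 reads against 398, 391 and 413 (log2 2.23, SE 0.22). The third KO-2 library lay well below the other two and still above KO-3. TINAGL1, a secreted matrix protein, stood at 3304, 3298 and 3618 against 905, 853 and 887 (log2 1.95). The metalloproteases ADAMTS14 and ADAM19 rose by 1.95 and 1.89, and the matrix proteoglycan versican, VCAN, by 1.89. The transcription factors ZBED2 (2.88) and KLF2 (2.44), the glucocorticoid-induced TSC22D3 (1.94), the membrane protein gene POPDC3 (2.53) and the decoy death receptor TNFRSF6B, listed with a readthrough gene (1.88), completed the named rises with AC022075.1 (1.94).

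S100A14, TMEM125 and SULT1A1 led the falls. S100A14, a calcium-binding protein of epithelia, had 321, 375 and 420 reads in KO-2 and 3152, 2560 and 2972 in KO-3, a 7.73-fold difference (log2 -2.95, SE 0.10, adjusted p = 1.1e-11). TMEM125 followed with 20.2, 21.1 and 12.8 against 129, 119 and 117 (log2 -2.76). AP1M2, which sorts cargo to the basolateral membrane of epithelial cells, stood at 147, 139 and 180 against 682, 603 and 701 (log2 -2.08). None of these overlapped. MAL2, of apical transport, was 2.62-fold lower, KRTCAP3 2.72-fold and the long noncoding RNA UCA1 3.39-fold. SULT1A1, a sulfotransferase with close copies on the same chromosome, stood at 135, 122 and 116 against 808, 688 and 738 (log2 -2.58). YBX1, an abundant cold shock protein that binds mRNA, fell by 1.27 on the log2 scale, at 12153, 11573 and 13535 reads against 28390, 31619 and 29626. The adhesion receptor gene ADGRG6, the aminopeptidase gene AOPEP, the homeobox gene IRX4, the hyaluronan-binding CEMIP, C6orf141, IQANK1 and MFSD13A fell by 1.30 to 2.12.

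**Figure D3:**
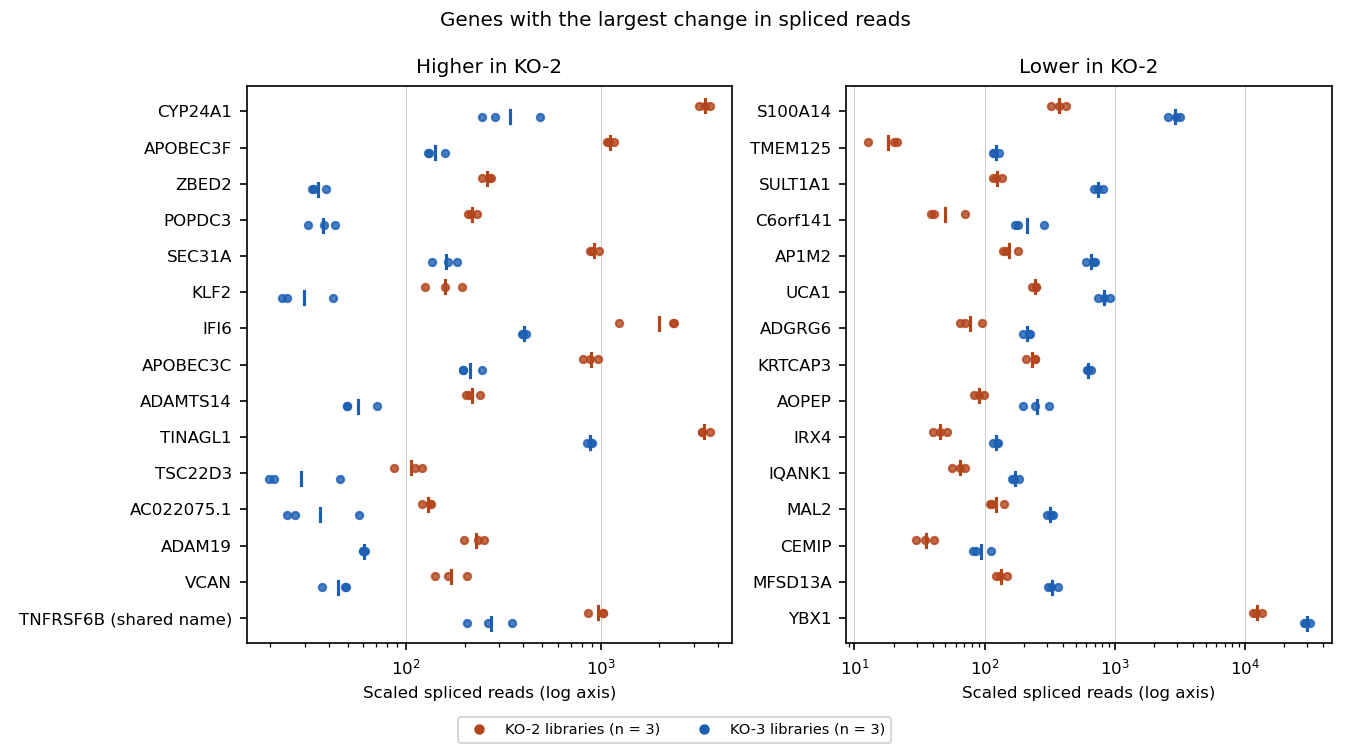
Scaled spliced reads per gene (x axis, log scale) of the 15 named rises and 15 named falls, with each library as a point and the mean of 3 as a bar, KO-2 in orange and KO-3 in blue. No gene has overlapping clones, by the rule that chose them, and the third KO-2 library of IFI6, at 1235 reads, is apart from 2377 and 2336.

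Promoters of 3 epithelial genes that fell and 2 interferon-induced genes that rose show the motifs searched for. The 130 bases printed lie within 250 bases before the RefSeq start, on GRCh38.p14. The motif CAGGTG, or CACCTG on the other strand, is the E-box that SNAI and ZEB repressors bind, and GAAA, any 2 bases and GAAA, or TTTC, any 2 bases and TTTC on the other strand, is the core of the interferon-stimulated response element. Capitals mark matches.
S100A14 (chr1:153616326-153616455, minus strand): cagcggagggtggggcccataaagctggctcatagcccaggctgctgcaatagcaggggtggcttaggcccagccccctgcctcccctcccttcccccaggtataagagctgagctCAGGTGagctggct
AP1M2 (chr19:10587313-10587442, minus strand): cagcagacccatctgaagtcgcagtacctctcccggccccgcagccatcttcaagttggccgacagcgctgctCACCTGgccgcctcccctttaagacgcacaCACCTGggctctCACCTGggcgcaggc
KRTCAP3 (chr2:27442251-27442380, plus strand): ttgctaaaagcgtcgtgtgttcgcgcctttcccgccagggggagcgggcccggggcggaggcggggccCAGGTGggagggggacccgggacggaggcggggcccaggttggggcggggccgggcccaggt
IFI6 (chr1:27672229-27672358, minus strand): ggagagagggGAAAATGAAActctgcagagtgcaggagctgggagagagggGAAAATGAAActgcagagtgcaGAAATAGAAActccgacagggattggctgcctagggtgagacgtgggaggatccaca
ISG15 (chr1:1013367-1013496, plus strand): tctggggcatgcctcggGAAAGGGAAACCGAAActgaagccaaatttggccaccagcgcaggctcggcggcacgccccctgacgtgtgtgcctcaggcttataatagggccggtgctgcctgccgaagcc
In ISG15 a pair of matches overlap. AP1M2 held 3 E-boxes, and 7 of the 10 named falls with a promoter in the table held at least 1, beside 15.4% of tested genes and 17.5% of all promoters. Of the named rises 1 of 10 did, ADAM19. The interferon core was in 11 of 18 promoters of the interferon genes higher in KO-2 (61.1%), beside 2.21% of tested genes and 3.07% of all promoters. These are matches of letters and not measured binding, and the genes were picked by their change or their list. A list of interferon response genes can hold this element in excess whichever clone is higher, so its share says nothing of the clones. Whether binding at either motif differed between the clones was not tested.

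Of 15 interferon response genes tested, 12 were higher in KO-2 and none lower, beside 21.5% and 20.3% of all genes, with a median log2 difference of 0.50 beside -0.00 over all genes. Over every intron listed for both clones, which lets more genes be tested, 23 of 28 were higher and none lower, beside 23.5% and 22.1% of all 9982 genes (45.5% in either direction). ISG15, a ubiquitin-like modifier, stood at 1995, 1909 and 1280 reads against 603, 623 and 688 (log2 1.41, adjusted p = 9.8e-07). IFI35 was higher by 1.62, and STAT2, which carries the interferon signal to the nucleus, by 0.67, at 1014, 976 and 926 reads against 685, 548 and 600. The third KO-2 library was the lowest of its clone for IFI6, ISG15, IFI35 and STAT2 and still above KO-3. Without it 24 of 28 were higher, and without the second KO-2 library 10 of the 15 were higher and 1 was lower.

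Of 12 WNT targets tested, 8 were higher and 3 lower, beside 21.5% and 20.3% of all genes, with a median of 0.37. The feedback inhibitor AXIN2 was higher by 1.03, at 370, 350 and 298 reads against 179, 144 and 173, the transcription factor SOX9 by 0.84, and cyclin D1, CCND1, by 0.48. CD44, also in this list, was lower by 1.18, at 8376, 8361 and 8645 reads against 20438, 17923 and 19245. Immediate-early genes had 7 of 13 higher and none lower, over every listed intron 7 higher and 1 lower of 18. Phosphatases that end MAP kinase signals were among them: DUSP5 stood at 1050, 992 and 1296 against 478, 439 and 461 (log2 1.27), and DUSP6 was higher by 0.68. The EGF receptor ligand AREG was higher by 0.44.

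Cholesterol and fatty acid synthesis had 14 of 26 genes higher and 3 lower, beside 21.5% and 20.3% of all genes, with a median of 0.22. Fatty acid synthase, FASN, stood at 67602, 63989 and 69681 against 37492, 39306 and 40208 reads (log2 0.78), and the regulator SREBF1 was higher by 0.56. The squalene epoxidase SQLE went the other way, at 683, 559 and 632 against 1402, 1093 and 1008 (log2 -0.90, adjusted p = 7.7e-06). Redox genes had 4 higher and 3 lower of 14, near the shares of all genes. Over every listed intron 10 of 20 were higher and 2 lower, beside 23.5% and 22.1% of all genes, with a median of 0.17. The 3 lower redox calls were 0 with library totals or without the first KO-2 library, and 1 without the third KO-2 library. The metallothioneins MT2A and MT1E were higher by 0.61 and 0.60, although close copies may share their reads. Glycolysis and hypoxia genes had 8 higher and 5 lower of 22.

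Of 79 ribosomal protein genes 68 were lower and none higher, beside 20.3% and 21.5% of all genes, with a median of -0.24. RPL12 stood at 56364, 57305 and 57824 reads against 88169, 77025 and 81072 (log2 -0.52). The count of 68 fell to 43 with library totals, where the median was -0.15 beside 0.09 over all genes, and to 48 without the third KO-2 library. Genes for hnRNPs had 15 of 21 lower and none higher (8 with library totals), with HNRNPA1 at 75111, 74974 and 72116 against 112453, 97430 and 96797. The major spliceosome had 12 of 24 lower, SR proteins and their kinases 8 of 17 lower and 1 higher (4 lower and 2 higher with library totals, 5 lower without the third KO-2 library), and snoRNA hosts 10 of 20 lower and 1 higher, the last not without the first or second KO-2 library. SRSF3, which couples splicing to export, was lower by 0.42, and the methyltransferase of box C/D snoRNPs, FBL, by 0.53.

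Cell cycle genes had 22 of 31 lower and 4 higher, beside 20.3% and 21.5% of all genes, with a median of -0.31. MCM7, of the replicative helicase, stood at 10776, 10442 and 10193 against 14647, 15073 and 14295 (log2 -0.49), cyclin A, CCNA2, was lower by 0.62 and cyclin B, CCNB1, by 0.39. CCND1 was among those higher. DNA repair had 7 of 28 lower, near the share of all genes, and 1 higher. Over every listed intron 17 of 41 repair genes were lower and 3 higher, beside 22.1% and 23.5% of all genes, so the lean depended on the introns summed. For mRNA decay 12 of 28 were lower and 3 higher. The 12 were 7 with library totals, and the 3 were 1 without the first KO-2 or the third KO-3 library. For p53 targets the calls split: the cell cycle inhibitor CDKN1A was higher by 0.82, at 2818, 3180 and 2990 reads against 1667, 1749 and 1681, and BAX was lower by 1.13. In all, 3 of 17 p53 targets were higher and 2 lower, both below the shares of all genes, with 5 higher under library totals or without the first KO-3 library.

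**Figure D4:**
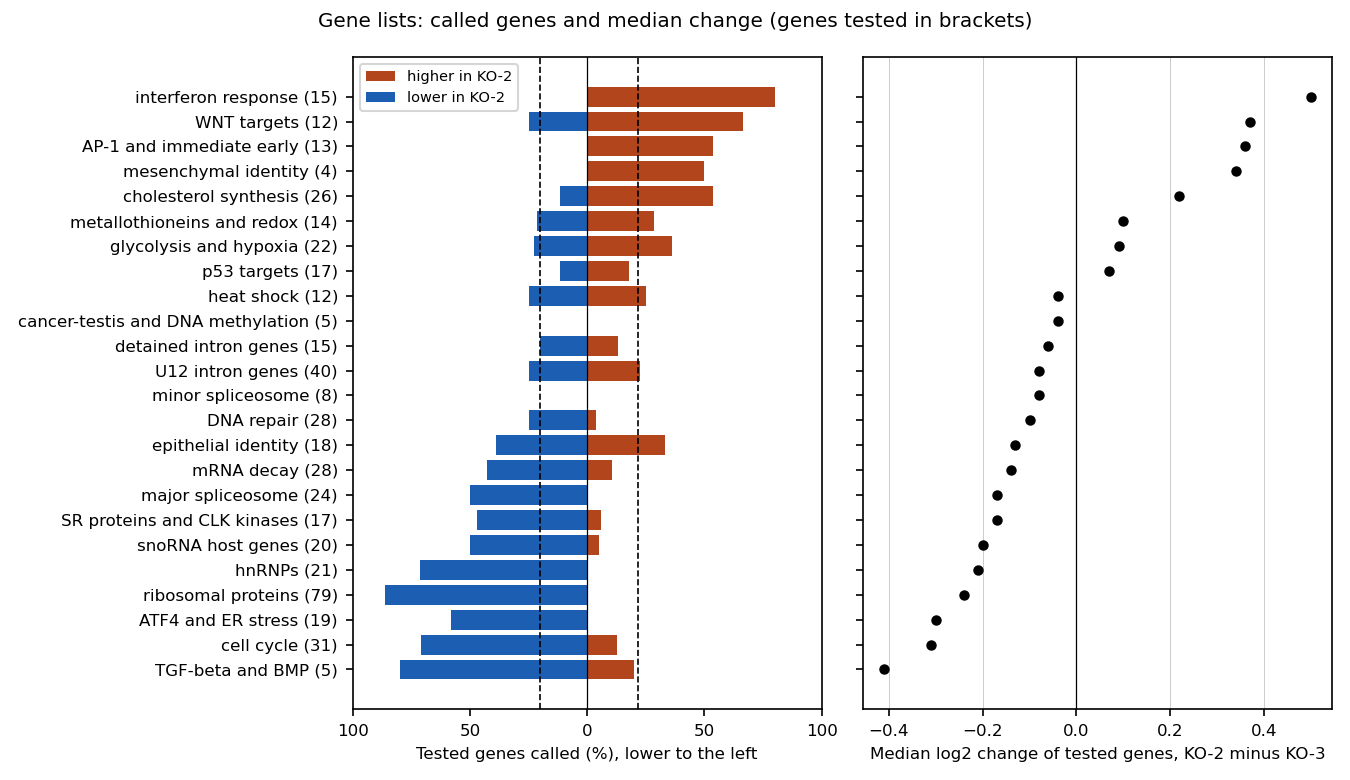
Left, share of tested genes in each list called higher (orange, to the right) or lower (blue, to the left) in KO-2, with dashed lines at the shares over all genes, 21.5% and 20.3%. Right, median log2 difference of the tested genes in each list, from 0.50 for the interferon response to -0.41 for the 5 genes of TGF-beta and BMP.

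ATF4 drives genes of amino acid supply under stress, and 11 of 19 genes of this list were lower in KO-2 and none higher (7 lower with library totals), beside 20.3% and 21.5% of all genes, with a median of -0.30. ATF4 itself stood at 4368, 4067 and 4084 reads against 8951, 6348 and 5668 (log2 -0.72, adjusted p = 1.0e-04), and the amino acid transporter subunits SLC7A5 and SLC3A2 were lower by 0.78 and 0.68. The first KO-3 library was the highest of the 6 for all these genes, with SLC3A2 at 12486 beside 8298 and 7740 in the others of its clone. Without it 10 of 19 were lower and 1 higher, with a median of -0.20. The chaperone HSP90B1 did not follow that library, at 14028, 14304 and 14755 against 11695, 11622 and 11421. Heat shock genes split at 3 and 3 of 12 (6 lower without the first KO-3 library), with HSPB1 higher by 1.08 and HSPH1 lower by 1.14.

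Epithelial identity genes moved in both directions. Of 18 tested, 6 were higher and 7 lower, beside 21.5% and 20.3% of all genes. EPCAM, an adhesion protein of epithelia, stood at 1731, 1717 and 1945 reads against 4094, 4103 and 3815 (log2 -1.16), and keratin 18, KRT18, at 24299, 24954 and 25384 against 42095, 40339 and 42898 (log2 -0.75). Keratins KRT23 and KRT15 were higher by 1.73 and 1.72, with KRT15 at 630, 843 and 856 against 244, 223 and 239. The first intron of KRT15 was also retained more, at 82.5%, 79.6% and 79.2% against 50%, 45.9% and 45.3% (log2 odds 2.16, adjusted p = 2.6e-08). Over every listed intron 8 of 27 were higher and 11 lower, beside 23.5% and 22.1% of all genes. E-cadherin, CDH1, named after its values were seen, stood there at 577, 612 and 633 against 1589, 1499 and 1353 (log2 -1.28). The 9 colon epithelial markers summed to 135894 to 144715 scaled reads in KO-2 and 194557 to 203051 in KO-3. Of 4 mesenchymal genes tested 2 were higher, the collagens COL6A1 (0.59) and COL6A2 (0.44), beside 21.5% of all genes. Over every intron 5 of 7 were higher and none lower, beside the same 23.5% and 22.1%. Among TGF-beta and BMP genes LTBP3, which stores the ligand in the matrix, was higher by 1.08 and the targets ID1, ID2 and ID3 were lower by 0.56, 1.04 and 0.41.

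Retention and spliced reads share the spliced count, so opposite moves are in part built in. Of the called introns 356 lay in the 254 genes that were also called for spliced reads. Retention was higher with lower spliced reads at 155 and lower with higher spliced reads at 107, whereas both were higher at 71 and both lower at 23. HSP90B1 intron 12 of 16 was retained at 14.4%, 14.2% and 13.8% against 7.91%, 7.3% and 7.82% (log2 odds 0.99, SE 0.06, adjusted p = 9.7e-29), a call lost with limma on log2 odds (0.096). Its retained reads averaged 1077 in KO-2 and 713 in KO-3, so they were higher while the gene's spliced reads were lower by 0.31. HSPB1 intron 1 was retained at 1.66%, 1.71% and 1.86% against 4.38%, 3.76% and 3.85%, with spliced reads of the gene higher by 1.08. In CLDN7, a claudin of tight junctions that was lower by 0.76, intron 2 was retained more (log2 odds 1.94) and intron 1 less (-1.95). ACSL5 passed as a gene at -0.25 (adjusted p = 0.012), and that call was lost with library totals (adjusted p = 0.07) and without the first (0.059) or second (0.051) KO-2 library.

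Chromosome medians of the gene difference lay within a narrow range. The highest were 0.10 on chromosome 21 (15 of 48 genes higher, 9 lower) and 0.10 on chromosome 22, and the lowest was -0.11 on chromosome 4 (16 of 153 higher, 40 lower). Over all genes 21.5% were higher and 20.3% lower. There were 6 runs in which 8 of 10 neighbouring tested genes passed in 1 direction. They were found by scanning all tested genes for such runs, so the counts within them are high by that rule. The strongest by median was on chromosome 9 (127451486 to 127980513), where 8 of 10 genes from LRSAM1 to FAM102A, the kinase gene CDK9 among them, were higher with a median of 0.73. On chromosome 11 a run of 10 with LTBP3, NEAT1 and RELA had 8 higher, and on chromosome 22 a run of 13 with MAPK11 and MAPK12 had 9 higher. Lower runs lay on chromosome 7 (10 of 14, with HNRNPA2B1 and CBX3), chromosome 10 (8 of 10, with HELLS and EXOSC1) and chromosome 12 (8 of 10, with HMGA2 and MDM2). Gene copy number was not analysed here.

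Some genes were listed for only 1 of the clones. Every listed intron had at least 20 junction reads in each library, so a gene missing from a list may be low rather than silent, and no fold was given. Introns listed only for KO-2 numbered 8316 and brought 381 gene names that KO-3 lacked. SPARC, a collagen-binding matrix protein, had 5271, 5303 and 5216 junction reads in KO-2, and the intermediate filament vimentin, VIM, had 613, 670 and 703. TGM2, COL13A1, RUNX1, PROM1, CSTA and AQP3 were listed for KO-2 only as well. For KO-3 there were 5229 such introns and 185 gene names. GRHL2, a transcription factor of epithelial cells, had 942, 774 and 759 junction reads in KO-3, EIF4EBP1, an inhibitor of translation and ATF4 target, had 1630, 1323 and 1002, and KLF4 had 402, 358 and 322. PXDN, also listed for KO-3 only, had 499, 513 and 489. These genes were chosen after their values were seen.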

How the data were processed

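The submitters' processing notes name cutadapt 2.0, STAR 2.7.1a and the build hg38. What counted and filtered the junctions is not given in the sources used here. Per the file headers, the authors deposited raw counts of retained (IJC) and spliced (SJC) junction reads and the effective length of each form. Each cell lists 3 libraries, so the unit was recorded as other, and a score or fold of the authors was not used. The lists carry no replicate numbers, and a library's number is its place in the list.

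Recomputed retention levels matched the deposited ones within 0.1 percentage points at 100% of values. Retention was tested with a quasi-binomial model (R 4.3.3), its dispersion moderated with limma 3.58.1 and floored at 1, and a two-sided F test. Sums of spliced reads per gene went through median-ratio scaling and limma voom, which replaced the planned count test. P-values were adjusted by Benjamini-Hochberg over all introns or genes, with a threshold of 0.05. Both tests were tested on simulated data with 100 features changed at each size. Genes were drawn independently with the same fixed dispersion for all, and introns with the dispersion that the test had fitted. Far fewer genes were changed than were called here, and no library had a shift shared by a set of genes. The rates that follow may thus not hold for these data. The retention test called 28% of introns with a log2 change of 1 in the odds and 86% with a change of 2. The gene test called 69% of genes with a log2 change of 0.5 and 100% with a change of 1. Of features with no change, 0.02% of introns and 0.05% of genes were called. An intron that was not called may thus still differ. Junction reads per library ranged from 27697728 to 36151970, so introns near 10 retained reads have wide errors.

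Introns were placed in the GENCODE annotation of the same build, and introns with an unread end were left out of the U12 and U2 classes. Promoters came from RefSeq on GRCh38.p14, and 7474 of 9982 tested genes matched. Named introns were the 12 largest rises and 12 largest falls in log2 odds among those called, 1 per gene. Named genes were the 15 largest rises and 15 largest falls among called genes whose clones did not overlap, up to 4 genes or introns per list by adjusted p, and up to 10 genes called in both readouts. Members and lists were chosen with earlier results of these data known, and 3 alternatives for the gene lists (every listed intron with library totals, without the third KO-2 library, or without the first KO-3 library) were added after the data were seen.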

Additional observations from a re-analysis of the deposited data

How the results depend on the processing

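Against 360 introns higher and 181 lower, the counts were 219 and 96 at a minimum mean of 50 reads of each kind, 172 and 99 at an adjusted p of 0.01, 86 and 41 among introns with no annotated exon inside, and 23 and 15 with limma on log2 odds, where 20 of 43 named introns lost their call, among them those of HSP90B1 (adjusted p = 0.096), RPL13 (0.24) and SERBP1 intron 4 (0.13). With no filter on low counts none passed in either direction (0 and 0). There the prior degrees of freedom of the dispersion were 1.82 in place of 129, and 2952 introns were higher and 2003 lower at an unadjusted p under 0.05. Leaving out each library in turn gave 175 to 506 introns higher and 113 to 153 lower. For genes, 1683 were higher and 679 lower with library totals, 2342 and 2204 over every intron listed for both clones, where 9982 genes were tested, and 909 and 760 at an adjusted p of 0.01. Leaving out each library gave 1072 to 1228 genes higher and 918 to 1132 lower. SERBP1 reversed from 0.35 to -0.01 over every listed intron and to -0.03 without introns called for retention, which leave out the introns that differed. No paired analysis was possible because the lists of libraries carry no replicate numbers, and a place in the list was not taken to pair libraries. The planned count test and its DESeq2 alternative were not run, and limma voom on the split lists took their place. Introns with few retained reads limit the retention test: TRIM62, ANO1, TMEM63A and SESTD1 rest on 0 to 2 retained reads in each library of 1 clone.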
